A study of Mus musculus with 4 samples.

Results

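The troponin isoform genes of the mouse heart were followed over 4 expression arrays. All 8 genes for troponin T (Tnnt1, Tnnt2, Tnnt3), troponin I (Tnni1, Tnni2, Tnni3) and troponin C (Tnnc1, Tnnc2) were taken by symbol, and every probe set annotated to exactly 1 of these symbols was kept. This gave 12 of the 45037 probe sets tested and 8 of 18193 genes. Of the 8 genes, 6 had 1 probe set each, and Tnnt2 and Tnni2 had 3 each. A probe set is a group of short oligonucleotides on the array that together report 1 transcript region.

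By their labels, 2 arrays held heart RNA of mice carrying a Sirt1 transgene (Tg-Sirt1 1 and Tg-Sirt1 2) and 2 that of wild type mice (NTg 1 and NTg 2). The Sirt1 signal of the array with the label Tg-Sirt1 1 was no higher than that of the wild type arrays, and its values are given with the description of the arrays. Nothing in the labels says that the arrays of a group came from separate animals, so the p-values measure only the spread between these arrays, which may be technical. Sirt1 is an NAD-dependent protein deacetylase, and the series is titled as a study of its part in cardiac gene regulation. The sources used here give no strain, age, sex or promoter of the transgene. Values are log2 intensities after RMA, so that 1 unit is a 2-fold change in signal, and a brighter or dimmer probe set is not evidence of more or less RNA, since probe sets differ in brightness for other reasons too.

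Troponin is the calcium switch of striated muscle. Troponin T anchors the complex to tropomyosin on the actin filament, troponin I holds contraction off when calcium is low, and troponin C binds calcium and releases that block. Each subunit has isoforms from separate genes: Tnnt2 and Tnni3 serve the adult heart, Tnnt1 and Tnni1 slow skeletal fibres, Tnnt3, Tnni2 and Tnnc2 fast skeletal fibres, and Tnnc1 is used by both heart and slow fibres. Tnni1 is also the main troponin I of the fetal heart and is replaced by Tnni3 around birth. T and I genes lie in tandem in mammals. In the RefSeq gene table of GRCm38.p6, Tnnt1 and Tnni3 were next to each other on chromosome 7 with 0 genes listed between them, Tnni1 and Tnnt2 lay on chromosome 1 with Lad1 between them, and Tnni2 and Tnnt3 on chromosome 7 with Lsp1 and Prr33 between them.

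The 250 bases upstream of the annotated start are shown for Tnnt1, whose values differed most between arrays, for its neighbour Tnni3, whose values differed least, and for Tnnt2, the cardiac counterpart of Tnnt1. They are from RefSeq on GRCm38.p6, in the direction of transcription, at chr7:4515976-4516225 (minus strand) for Tnnt1, chr7:4522529-4522778 (minus strand) for Tnni3 and chr1:135836084-135836333 (plus strand) for the first of the starts listed for Tnnt2. Capitals mark matches on either strand to the E-box CANNTG, the MCAT element CATTCC or the TATA box TATAAA.
Tnnt1: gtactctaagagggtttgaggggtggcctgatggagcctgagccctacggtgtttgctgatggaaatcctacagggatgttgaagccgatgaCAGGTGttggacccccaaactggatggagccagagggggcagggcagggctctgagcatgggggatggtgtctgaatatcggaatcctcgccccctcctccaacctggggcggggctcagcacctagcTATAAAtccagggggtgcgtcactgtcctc
Tnni3: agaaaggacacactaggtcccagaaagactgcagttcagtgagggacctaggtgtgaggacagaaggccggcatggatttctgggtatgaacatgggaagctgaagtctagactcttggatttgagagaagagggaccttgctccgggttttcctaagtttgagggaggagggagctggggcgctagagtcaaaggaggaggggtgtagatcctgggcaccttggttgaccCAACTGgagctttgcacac
Tnnt2: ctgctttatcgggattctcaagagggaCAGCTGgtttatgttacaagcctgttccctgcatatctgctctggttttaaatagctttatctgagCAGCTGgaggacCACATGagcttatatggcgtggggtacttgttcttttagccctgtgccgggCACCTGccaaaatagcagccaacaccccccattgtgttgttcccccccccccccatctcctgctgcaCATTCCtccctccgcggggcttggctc

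The Tnnt1 window held 1 TATAAA, starting 30 bases before the start site, and 1 E-box. The Tnni3 window held 1 E-box and neither of the other elements. The Tnnt2 window held 4 E-boxes and 1 MCAT element, which starts 27 bases before the start site. Among 32851 such windows of all genes, 66.2% held an E-box, 12.6% an MCAT element and 12.4% a TATAAA, and a MEF2 site, found in 2.92% of them, was in 0 of those shown. A match is a run of letters and not a measured site. Windows were listed for 6 of the 8 genes.

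Before the members are compared, the arrays themselves need a description. The arrays with the labels Tg-Sirt1 1 and NTg 1 were near-identical: over all 45037 probe sets their differences had an SD of 0.0759 log2 units, against 0.342 to 0.405 in the other 5 pairs of arrays. A test of 2 against 2 with an equal pair across the labels cannot give an ordinary t above 1.41, so its failure to call a gene says little. Sirt1 read 7.16 on the array that carries the label Tg-Sirt1 1 and 7.93 on the other Tg-Sirt1 array, against 7.30 and 7.17 on NTg 1 and 2, so that the first of these does not bear out its label at the only probe set of this gene. The part of the transcript which that probe set covers is not given here. No array was moved to another group. The tissue was heart muscle by its markers on all 4 arrays: the 8 cardiomyocyte markers, summed on the linear scale, gave log2 sums of 16.81 and 16.66 on the Tg-Sirt1 arrays and 16.81 and 16.74 on the NTg arrays. In bulk tissue, fewer cells of a type and less RNA per cell cannot be told apart.

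Of the 12 troponin probe sets, 10 stayed within 0.73 log2 units over the 4 arrays, and 2 did not. Slow skeletal troponin T, Tnnt1, was far lower on NTg 2 than on the other 3 arrays, and the dimmest probe set of cardiac troponin T was far lower on Tg-Sirt1 2 than on the other 3. The median range over the 4 arrays was 0.25 log2 units over the 12 probe sets and 0.33 over all probe sets.

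**Figure D1:**
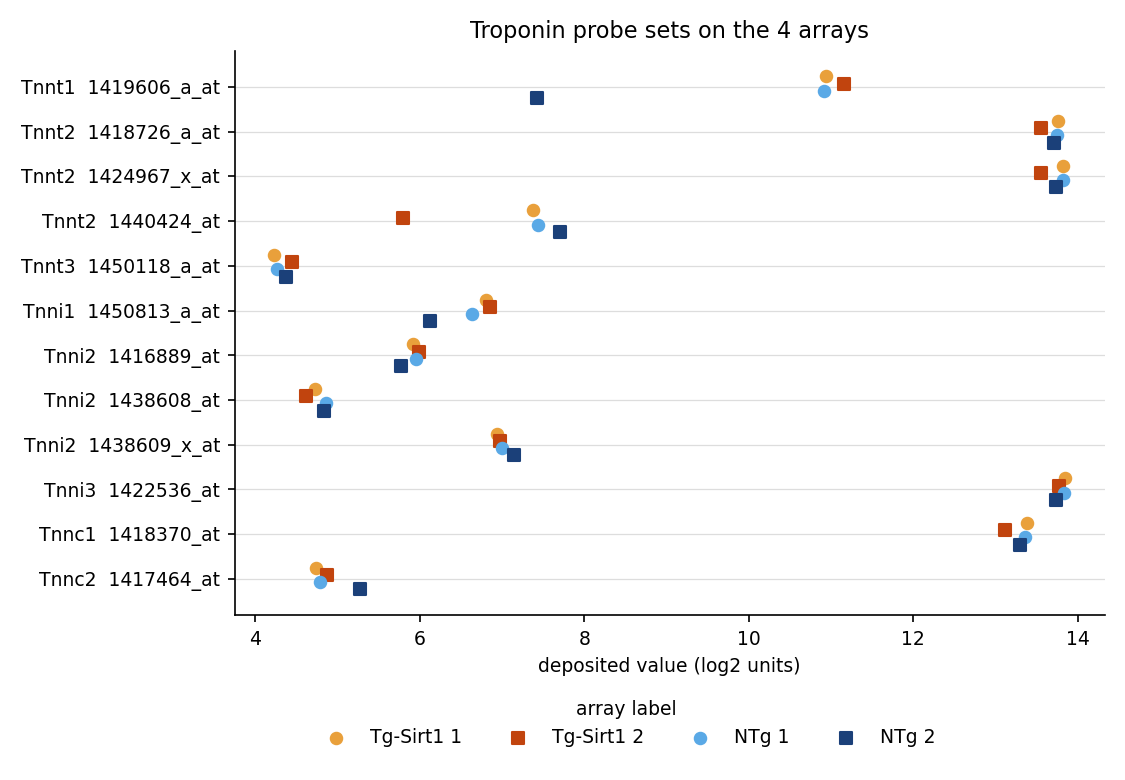
Deposited log2 value (x axis) of each of the 12 troponin probe sets (rows) on each of the 4 arrays (1 point per array, no averaging). Tnnt1 lies at 7.43 for NTg 2 and between 10.92 and 11.16 for the rest, and Tnnt2 1440424_at lies at 5.79 for Tg-Sirt1 2 and between 7.38 and 7.70 for the rest, while each of the other 10 rows spans 0.73 units or less. Positions of different rows are not comparable, since probe sets differ in brightness.

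Between the labels, 0 of the 12 probe sets passed limma at an adjusted p of 0.05 over all probe sets, where the background was 0% (0 of 45037). At an unadjusted limma p under 0.05 there were again 0 of 12, against 0.0622% of all probe sets. The lowest unadjusted limma p among the members was 0.0743, for Tnni1, and every adjusted p was 0.996. Both Tg-Sirt1 values lay above both NTg values at 2 of the 12, Tnnt1 and Tnni1, against 9.59% of all probe sets. Both lay below at 3 of the 12, namely Tnnt2 1440424_at, Tnni2 1438608_at and Tnni2 1438609_x_at, against 11.4% of all. The labels thus did not overlap at 5 of the 12, against 21.0% of all. The Tnni2 probe sets among them were drawn from the same source sequence. By gene, with the probe set of highest mean, 2 of 8 lay above and 1 below, against 2075 and 1692 of 18193. At Tnnt1, Tnnt2 1440424_at and Tnni2 1438609_x_at the labels were only 0.02, 0.06 and 0.02 log2 units apart. These gaps were less than the SD of 0.0759 within the near-identical pair. The mean was higher in Tg-Sirt1 at 5 of the 12 and lower at 7, with a median log2 difference of -0.07 (-0.02 over all probe sets). Over all 45037 probe sets it was higher at 20520 and lower at 23926. With groups of 2, an exact two-sided permutation test cannot give a p below 0.333.

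Troponin T showed the widest spread. Tnnt1 (probe set 1419606_a_at), the slow skeletal form, read 10.94 and 11.16 on the arrays with the labels Tg-Sirt1 1 and 2, against 10.92 and 7.43 on NTg 1 and 2. Of these values, 3 lie close together and NTg 2 stands alone below them. Tg-Sirt1 averaged 11.05 ± 0.16 and NTg 9.18 ± 2.47 (SD, n = 2 each), a log2 difference of 1.88 with an SE of 1.10 and a 95% confidence interval from -0.94 to 4.69, at a limma adjusted p of 0.996. The labels did not overlap, but the gap was the 0.02 that separates NTg 1 from the array with the label Tg-Sirt1 1, less than the SD of that near-identical pair. Without NTg 2 the log2 difference was 0.13, and without NTg 1 it was 3.62.

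Between the 2 wild type arrays Tnnt1 differed 11.2-fold, by -3.49 log2 units for NTg 2 minus NTg 1. Only 2 of the 45037 probe sets fell further in that pair, in which 1.27% of all probe sets lay over 2-fold apart. Against NTg 2, Tg-Sirt1 2 was 13.3-fold and the array with the label Tg-Sirt1 1 was 11.4-fold higher, where 2.44% and 1.22% of all probe sets were over 2-fold apart. These are differences between single arrays, which carry no replicate check. Over all probe sets, 0.402% lay over 2-fold below each of the other 3 arrays on NTg 2, and Tnnt1 was the only troponin probe set among them.

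Cardiac troponin T, Tnnt2, was steady at its bright probe sets. Probe set 1424967_x_at read 13.82 and 13.56 on Tg-Sirt1 1 and 2 and 13.82 and 13.74 on NTg 1 and 2 (log2 difference -0.09, SE 0.15). Probe set 1418726_a_at read 13.76 and 13.56 on the Tg-Sirt1 arrays and 13.75 and 13.71 on the NTg arrays (log2 difference -0.07, SE 0.14). In both, the labels overlapped and Tg-Sirt1 2 was the lowest array. The sign of both turned when Tg-Sirt1 2 was left out (0.04 and 0.03).

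The third Tnnt2 probe set, 1440424_at, did not follow them. It read 7.38 and 5.79 on Tg-Sirt1 1 and 2, against 7.44 and 7.70 on NTg 1 and 2. Tg-Sirt1 2 lay 3.01-fold below the other Tg-Sirt1 array, 3.14-fold below NTg 1 and 3.76-fold below NTg 2, and the other 3 arrays stood close together. Of all probe sets, 2.02% lay over 2-fold apart between the Tg-Sirt1 arrays and 2.06% between Tg-Sirt1 2 and NTg 1, and 0.819% lay over 2-fold below each other array on Tg-Sirt1 2. Tg-Sirt1 averaged 6.59 ± 1.12 and NTg 7.57 ± 0.18 (SD, n = 2 each), a log2 difference of -0.99 with an SE of 0.52 and a 95% confidence interval from -2.31 to 0.34 (limma adjusted p = 0.996). Without Tg-Sirt1 2 it was -0.19, and -1.78 when the other Tg-Sirt1 array was left out.

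Tg-Sirt1 2, and to a lesser extent NTg 2, stood above the near-identical pair in the array's control probes for RNA integrity, which report a transcript near its 3' and its 5' end. The 3' minus 5' signal of Actb was 1.25 and 1.92 log2 units on Tg-Sirt1 1 and 2, against 1.22 and 1.44 on NTg 1 and 2. That of Gapdh was 0.19 and 1.34 on the Tg-Sirt1 arrays, against 0.18 and 0.69 on the NTg arrays. The part of the Tnnt2 transcript that 1440424_at covers is not given here. Whether these values bear on its reading on Tg-Sirt1 2, or on that of Tnnt1 on NTg 2, was not tested.

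Fast skeletal troponin T, Tnnt3, was dim. Its probe set read 4.23 and 4.45 on Tg-Sirt1 1 and 2 and 4.26 and 4.37 on NTg 1 and 2, below the median of all probe sets on each of the 4 arrays. The labels overlapped, with a log2 difference of 0.03 and an SE of 0.15. No detection calls were used here, so such a value does not show that the transcript was present.

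**Figure D2:**
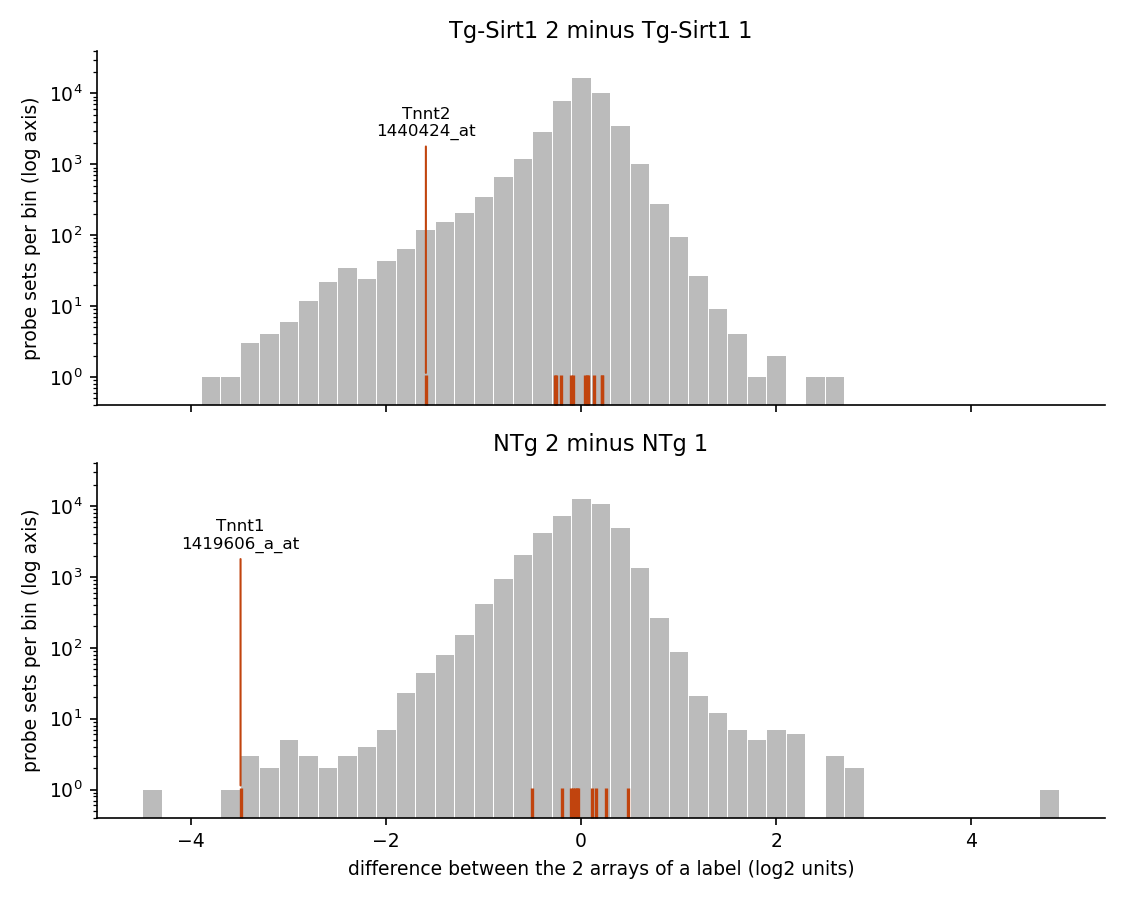
Number of probe sets (log axis) by the log2 difference between the 2 arrays of a label, for Tg-Sirt1 2 minus Tg-Sirt1 1 (top) and NTg 2 minus NTg 1 (bottom), over 45037 probe sets, with red ticks at the 12 troponin probe sets. Tnnt2 1440424_at lies at -1.59 in the Tg-Sirt1 pair and Tnnt1 at -3.49 in the NTg pair, and the remaining troponin probe sets lie within 0.5 units of 0 in both.

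Among the troponin I genes, slow skeletal Tnni1 was the one with the largest difference. It read 6.80 and 6.86 on Tg-Sirt1 1 and 2, against 6.63 and 6.13 on NTg 1 and 2. NTg 2 was again the lowest array, but the spread was much smaller than for Tnnt1, at 0.73 log2 units or 1.66-fold from lowest to highest. Tg-Sirt1 averaged 6.83 ± 0.04 and NTg 6.38 ± 0.35 (SD, n = 2 each), a log2 difference of 0.45 with an SE of 0.20 and a 95% confidence interval from -0.06 to 0.96 (limma adjusted p = 0.996). Within the near-identical pair the array with the label Tg-Sirt1 1 was 0.17 above NTg 1, the largest difference of that pair among the 12 troponin probe sets. The log2 difference was 0.20 without NTg 2 and 0.70 without NTg 1.

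Adult cardiac troponin I, Tnni3, read 13.85 and 13.77 on the Tg-Sirt1 arrays and 13.84 and 13.74 on the NTg arrays. This range of 0.11 log2 units was the smallest of the 12 probe sets, and the labels overlapped. The log2 difference was 0.02 with an SE of 0.13 and a 95% confidence interval from -0.31 to 0.35. Its direction was not fixed, since it was -0.03 without NTg 2 and 0.07 without NTg 1.

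Fast skeletal troponin I, Tnni2, had probe sets that disagreed in sign and moved little. The brightest, 1438609_x_at, read 6.94 and 6.98 on Tg-Sirt1 1 and 2, against 7.00 and 7.15 on NTg 1 and 2 (log2 difference -0.12, SE 0.13), and the difference was -0.04 without NTg 2. Probe set 1438608_at read 4.72 and 4.62 on the Tg-Sirt1 arrays, against 4.86 and 4.83 on the NTg arrays (-0.18, SE 0.13). Probe set 1416889_at read 5.92 and 5.99 on the Tg-Sirt1 arrays and 5.96 and 5.77 on the NTg arrays (0.09, SE 0.14). The labels overlapped at the last of these, and at the first and second they were separated by gaps of 0.02 and 0.11 log2 units. The last turned to -0.005 without NTg 2. The probes of an _x_at set may bind other transcripts as well.

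Troponin C, the calcium sensor, varied little between the labels. Tnnc1, shared by heart and slow fibres, read 13.39 and 13.12 on Tg-Sirt1 1 and 2 and 13.36 and 13.30 on NTg 1 and 2 (log2 difference -0.08, SE 0.15), with overlapping labels and Tg-Sirt1 2 lowest, as for the bright Tnnt2 probe sets. Without Tg-Sirt1 2 the difference was 0.06. Fast skeletal Tnnc2 read 4.74 and 4.87 on the Tg-Sirt1 arrays and 4.79 and 5.27 on the NTg arrays, below the median of all probe sets on each of the 4 arrays. NTg 2 was the highest array here, opposite to Tnnt1 and Tnni1, and the log2 difference of -0.23 (SE 0.20) became 0.02 without that array.

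**Figure D3:**
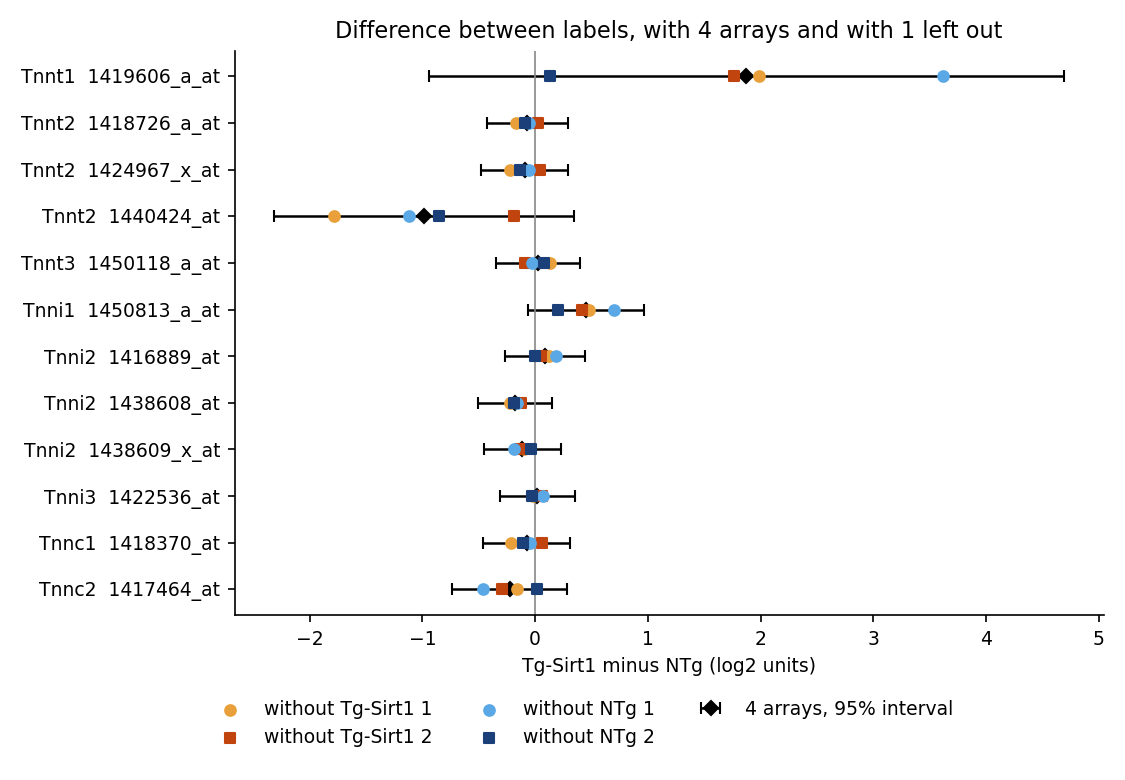
Log2 difference of the label means, Tg-Sirt1 minus NTg (x axis), for each troponin probe set: diamonds with bars are the 4-array limma estimate with its 95% confidence interval, and coloured points the estimate with the named array left out. All 12 intervals cross 0. Tnnt1 lies at 0.13 without NTg 2 and at 3.62 without NTg 1, and Tnnt2 1440424_at at -0.19 without Tg-Sirt1 2.

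Isoforms of a subunit were also compared through the change of their log2 ratio between arrays, using the probe set of highest mean for each gene. The ratio of slow Tnnt1 to cardiac Tnnt2 was 1.97 log2 units higher in Tg-Sirt1 than in NTg (exact two-sided permutation p = 0.333, the smallest that 2 against 2 allows). Most of it lay in NTg 2, where NTg 2 minus NTg 1 was -3.41 log2 units for this ratio. The array with the label Tg-Sirt1 1 differed from NTg 1 by 0.02 in the same ratio, and Tg-Sirt1 2 from NTg 1 by 0.50. The ratio of slow Tnni1 to cardiac Tnni3 was 0.43 higher in Tg-Sirt1 (exact permutation p = 0.333), and NTg 2 minus NTg 1 was -0.40 for it. Ratios of the fast forms to the cardiac forms changed less, by 0.12 for Tnnt3 over Tnnt2, -0.14 for Tnni2 over Tnni3 and -0.15 for Tnnc2 over Tnnc1, with exact permutation p of 1, 0.667 and 0.667. The sign of the Tnni2 ratio depends on the probe set. It used 1438609_x_at, with a log2 difference of -0.12, and 1438608_at had -0.18. Probe set 1416889_at had 0.09, above the 0.02 of Tnni3. In all there were 5 ratios, and none could pass at this sample size.

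The transcripts whose pattern over the 4 arrays was closest to that of Tnnt1 were Bex1, Gm16316 and Slc16a7, a monocarboxylate transporter gene. Likeness was the root mean square difference in log2 units after each gene was centred on its own mean over the 4 arrays, and it was 0.0736, 0.0873 and 0.118. Bex1 read 10.88 and 11.28 on Tg-Sirt1 1 and 2, against 10.86 and 7.42 on NTg 1 and 2. Gm16316 read 8.29 and 8.58 on the Tg-Sirt1 arrays, against 8.31 and 5.01 on the NTg arrays. Slc16a7 read 9.11 and 9.20 on the Tg-Sirt1 arrays, against 9.08 and 5.80 on the NTg arrays. As with Tnnt1, each was low on NTg 2 alone. With a near-identical pair, the 4 arrays hold few separate values, so that likeness over them is a description only.

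**Figure D4:**
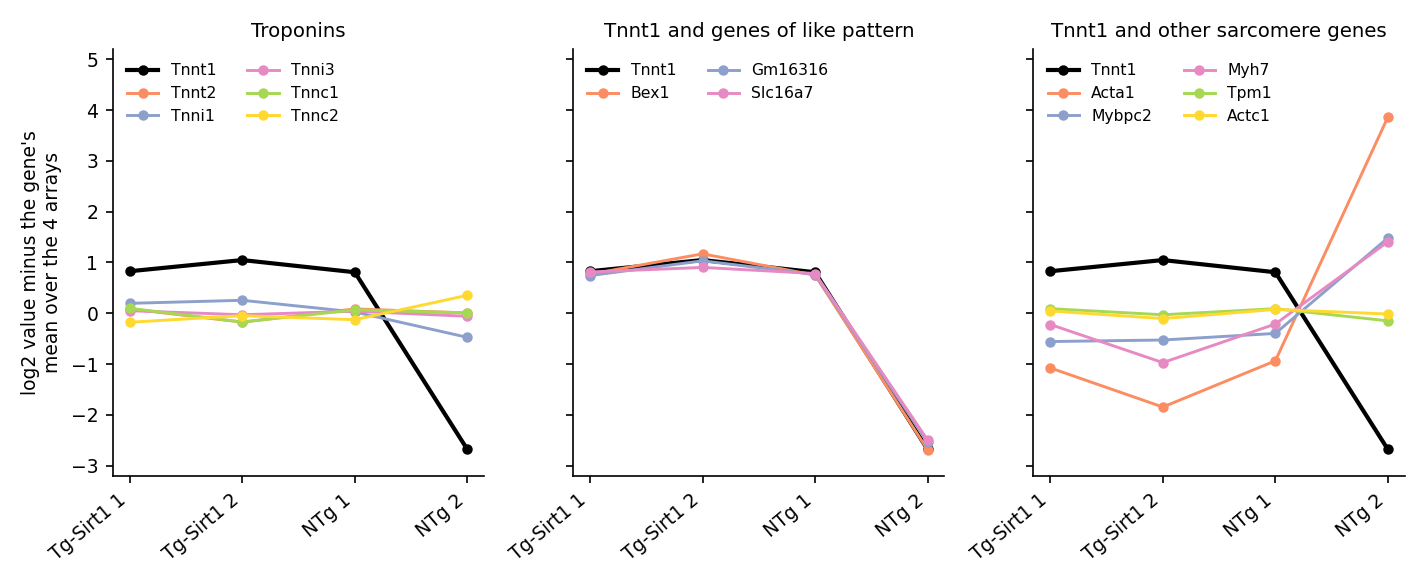
Log2 value minus the gene's mean over the 4 arrays (y axis) on each array (x axis), 1 line per gene and no averaging. Left, 6 troponin genes. Middle, Tnnt1 with the 3 genes of closest pattern. Right, Tnnt1 with Acta1, Mybpc2 and Myh7, which were highest on NTg 2, and with Tpm1 and Actc1, which ranged over 0.24 and 0.18 log2 units. Neb, Nebl and Myl1, which were lowest on NTg 2 as Tnnt1 was, are not drawn.

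The partners of troponin on the thin filament had no common direction. Of 17 such genes, 8 had a higher and 9 a lower Tg-Sirt1 mean, against 9653 and 8324 of all 18193 genes. The test passed 0 of the 17. Their median log2 difference was -0.02, against 0.02 over all genes and 0.02 for this list after each array was centred on its median. Tpm1, the cardiac tropomyosin gene, varied little, at 14.20 and 14.08 on the Tg-Sirt1 arrays and 14.20 and 13.96 on the NTg arrays. Cardiac actin, Actc1, read 13.87 and 13.72 on the Tg-Sirt1 arrays and 13.90 and 13.81 on the NTg arrays. Lmod2 and Tmod1 ranged over 0.29 log2 units each. Other bright partners moved more. Nebl read 12.67 and 12.75 on the Tg-Sirt1 arrays against 12.65 and 11.81 on the NTg arrays, lowest on NTg 2 as Tnnt1 was. Nrap and Lmod3 ranged over 0.75 and 0.70 log2 units.

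The skeletal members of that list included the widest ranges, in both directions. Skeletal actin, Acta1, read 7.23 and 6.46 on Tg-Sirt1 1 and 2, against 7.37 and 12.17 on NTg 1 and 2. Mybpc2, the fast skeletal myosin-binding protein C gene, read 7.06 and 7.09 on the Tg-Sirt1 arrays, against 7.22 and 9.10 on the NTg arrays. Both were highest on the array where Tnnt1 was lowest. Nebulin, Neb, which spans the thin filament of skeletal muscle, read 5.13 and 6.30 on the Tg-Sirt1 arrays, against 5.31 and 4.70 on the NTg arrays, so that it was lowest on NTg 2, as Tnnt1 was. NTg 2 was the lowest array for 6 and the highest for 5 of the 17 genes, and 37.9% and 34.3% of all genes had their lowest and highest value there.

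Fetal cardiac genes other than the troponins were split in sign between the labels as well. Of 8 measured among 10 listed, 4 had a higher and 4 a lower Tg-Sirt1 mean, 0 passed, and the median was -0.10. Those of largest range, Acta1, Myh7 and Nppb, were lower in Tg-Sirt1, by log2 differences of -2.925, -1.195 and -0.455, and highest on NTg 2. NTg 2 was the highest array for 4 and the lowest for 2 of the 8. The log2 sum of the list was 14.26 and 14.13 on the Tg-Sirt1 arrays and 14.25 and 15.09 on the NTg arrays. Slow myosin heavy chain, Myh7, read 11.64 and 10.89 on Tg-Sirt1 1 and 2, against 11.65 and 13.27 on NTg 1 and 2. Nppb, the B-type natriuretic peptide gene, read 11.76 and 11.55 on the Tg-Sirt1 arrays, against 11.76 and 12.46 on the NTg arrays. The slow myosin and the slow troponin T thus went opposite ways on NTg 2: Myh7 was 1.62 log2 units above NTg 1 there and Tnnt1 was 3.49 below it.

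Genes that act on troponin genes or proteins were tallied in the same way, and none passed the test. The counts below stand against 9653 higher and 8324 lower of all 18193 genes. Transcription factors and hormone receptors had 12 of 18 higher and 6 lower, with a median of 0.05 (-0.03 once quantile normalized again). Tbx5, a cardiac T-box factor, was lowest on Tg-Sirt1 2, at 7.97 and 7.19 on the Tg-Sirt1 arrays against 8.03 and 8.03 on the NTg arrays. Vgll4, a cofactor of the TEAD proteins that bind MCAT elements, read 5.89 and 5.23 on the Tg-Sirt1 arrays, against 5.88 and 5.96 on the NTg arrays. Gata4, a zinc finger factor of cardiac genes, read 9.91 and 9.39 on the Tg-Sirt1 arrays and 9.95 and 9.31 on the NTg arrays.

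Kinases, phosphatases and proteases of troponin had 10 of 16 measured genes higher and 6 lower (9653 and 8324 of all 18193 genes), with a median of 0.12. A second quantile normalization brought it to 0.03, and leaving out NTg 2 to -0.08. Mmp2, a protease that cleaves troponin I, read 11.17 and 10.74 on the Tg-Sirt1 arrays and 11.16 and 10.25 on the NTg arrays. Prkd1, a kinase of cardiac troponin I, read 8.54 and 8.96 on the Tg-Sirt1 arrays, against 8.48 and 8.15 on the NTg arrays. Camk2d, the main cardiac calcium/calmodulin-dependent kinase, read 9.12 and 9.38 on the Tg-Sirt1 arrays, against 9.11 and 8.59 on the NTg arrays. All 3, named for their large range, had their lowest value on NTg 2. So did 9 of the 16 measured genes in all, against 37.9% of all genes.

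Splicing factors of the kind that choose troponin T exons had 6 of 9 higher and 3 lower, with a median of 0.10 (-0.005 once quantile normalized again). Rbfox2 had the widest range, at 8.07 and 6.06 on Tg-Sirt1 1 and 2 and 8.22 and 6.71 on NTg 1 and 2, so that both second arrays were low. Rbfox1 read 10.52 and 10.58 on the Tg-Sirt1 arrays, against 10.50 and 9.60 on the NTg arrays, and Celf1 read 11.21 and 11.33 on the Tg-Sirt1 arrays, against 11.20 and 10.70 on the NTg arrays. Which spliced forms of Tnnt2 each probe set reports is not given here.

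Because slow and fast troponins are genes of skeletal muscle, markers of other cell types were measured on the same arrays. Of 15 skeletal muscle markers, 9 were highest and 2 lowest on NTg 2, against 34.3% and 37.9% of all genes, and 0 passed the test. Most of those highest there were dim. Myod1, Myf6, Actn3, Mylpf, Myh8, Myh1 and Ryr1 read below the median of all probe sets on NTg 2. That median was 6.30, the highest of the arrays, against 6.24 and 6.22 on Tg-Sirt1 1 and 2 and 6.23 on NTg 1. Ryr1 was only 0.01 above NTg 1. The linear sum of the 15 markers gave log2 values of 12.32 and 12.42 on the Tg-Sirt1 arrays and 12.37 and 11.87 on the NTg arrays. By contrast, the median of the 15 genes, each centred on its own mean, was highest on NTg 2. It was -0.02 and -0.083 on the Tg-Sirt1 arrays and -0.023 and 0.105 on the NTg arrays. The brightest of them, Myl1, an alkali light chain gene, was lowest on NTg 2, as Tnnt1 was. It read 11.99 and 12.10 on the Tg-Sirt1 arrays against 12.05 and 10.85 on the NTg arrays. Casq1, skeletal calsequestrin, went the other way, at 7.91 and 8.47 on the Tg-Sirt1 arrays against 7.93 and 10.02 on the NTg arrays. Of the skeletal myosin heavy chain genes, Myh4 and Myh2 stayed at 4.17 to 4.25 and at 6.08 to 6.19 on the 4 arrays. Myh8 and Myh1 were highest on NTg 2. Myh8 read 4.51 and 4.40 on the Tg-Sirt1 arrays against 4.51 and 4.85 on the NTg arrays. Myh1 read 5.79 and 5.90 on the Tg-Sirt1 arrays against 5.82 and 6.04 on the NTg arrays. Myod1, the muscle determination factor, ranged from 5.51 to 6.14 and was also highest on NTg 2.

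On NTg 2, the array where Tnnt1 and Tnni1 were lowest, all 8 fibroblast markers had their lowest value, against 37.9% of all genes. Their log2 sum was 14.67 and 14.24 on the Tg-Sirt1 arrays, against 14.67 and 13.80 on the NTg arrays, and Col1a1, a collagen gene, read 10.50 and 9.58 on the Tg-Sirt1 arrays against 10.51 and 9.18 on the NTg arrays. Smooth muscle markers were lowest on NTg 2 at 2 of 7 and highest there at 3. Their log2 sum was 13.59 and 13.24 on the Tg-Sirt1 arrays and 13.59 and 12.60 on the NTg arrays. The brightest of them, Acta2, a smooth muscle actin gene, read 13.21 and 12.92 on the Tg-Sirt1 arrays and 13.20 and 11.83 on the NTg arrays, whereas the median of the 7 genes, each centred on its own mean, was 0.16 and -0.26 on the Tg-Sirt1 arrays and 0.16 and 0.08 on the NTg arrays. Atrial and conduction markers, 6 measured of 7, had a log2 sum of 12.95 and 13.61 on the Tg-Sirt1 arrays and 12.94 and 13.33 on the NTg arrays, and the 6 endothelial markers one of 12.31 and 11.96 on the Tg-Sirt1 arrays and 12.32 and 11.87 on the NTg arrays. NTg 2 was the lowest array for 2 and the highest for 1 of the 6 endothelial markers. For the 6 atrial and conduction markers it was the lowest for 0 and the highest for 0. Of all these markers, 0 passed the test. The part of these cell types in the low Tnnt1 value of NTg 2 was not tested.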

How the data were processed

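Total RNA from mouse hearts was measured on 4 arrays. The deposited values were log2 intensities, 1 per probe set and array, and per the submitters' processing notes they were made with RMA and Affymetrix Expression Console. RMA includes background correction and quantile normalization, so that a change in total RNA is lost, and it shrinks differences between dim signals. The analysis began from these values, not from scanner files. Precision is limited by the number of arrays.

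Of 45101 probe sets, 64 controls were left out. Symbols came from the platform annotation: 34945 probe sets had 1 gene symbol, 932 several and 9160 none here. The Entrez identifiers of all 12 troponin probe sets matched the RefSeq table of GRCm38.p6. The probe set of highest mean represented a gene in lists. Tg-Sirt1 was compared with NTg in limma 3.58.1 under R 4.3.3 (lmFit, eBayes), two-sided, with Benjamini-Hochberg adjustment over all 45037 probe sets, on 2 residual and 3.10 prior degrees of freedom. The test was tested on simulated data with known changes. At a spread setting of 0.2 log2 units, simulated first, it recovered 0 of 200 even with 4 separate arrays. A smaller setting of 0.1 was then added, at which it recovered 188 of 200 with 4 separate arrays, beside 9 false calls. Where 1 array was a near copy of one of the other label it recovered 0. That outcome was set by the copying, which overwrote the change on this array. The spread of the deposited arrays was not matched, so these counts do not give the power of the test here. The fit itself was not altered.

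Members, lists, tests and alternatives were chosen with earlier results of these data known. From each list the 3 genes of largest range were named. Because a statement turned on them, further genes were named after their values were seen. From the thin filament partners these were Tpm1, Actc1, Nebl, Nrap, Lmod3, Lmod2 and Tmod1. From the skeletal muscle markers they were Myh4, Myh2, Myh8, Myh1, Myf6, Actn3, Mylpf and Ryr1. From marker lists other than skeletal muscle only Col1a1 and Acta2 were named. Some genes are on several lists and are described once. Alternatives covered normalization, dim probe sets, an offset of 16, the variance model, the replicate number as a block, left-out arrays, the near-identical pair counted once, the threshold and the probe set of a gene.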

Additional observations from a re-analysis of the deposited data

How the results depend on the processing

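No troponin probe set passed under any of 14 changes to the processing. The count was 0 of the 12 in each, except that without dim probe sets only 8 of them were tested, again with 0 passing. It was 0 over all probe sets tested, at an adjusted p of 0.05 and also of 0.2. Adjusted limma p over alternatives ran from 0.508 to 0.999 for Tnnt1 and from 0.349 to 0.999 for Tnnt2 1440424_at. Fits that leave 1 array under a label assume that it varies like the other label. In the unmoderated model the 19 probe sets with equal values within both labels were given no p, a rule chosen after seeing the data. With a p kept wherever the computed spread exceeded exactly 0, that model called 15 of all probe sets, 0 of them troponins. All 15 were equal within both labels, and their log2 differences were at most 0.14. With the replicate block the log2 difference of Tnnt1 was 1.88 (limma adjusted p = 0.931) and no call changed. The labels do not say that a number marks a shared source. The deviations of the arrays numbered 1 from their label means correlated at r = 0.293 across probe sets. Those arrays are the near-identical pair, which by itself raises such a correlation, so it cannot show whether a number marks a shared source. With the near-identical pair counted once, Tnnt1 was 1.98 with the pair as NTg and 3.62 with the pair as Tg-Sirt1.

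Among the troponin probe sets, the largest difference whose sign turned was that of Tnnc2, at -0.225. The smaller ones of Tnni2 1438608_at (-0.175) and 1438609_x_at (-0.115) kept their sign throughout. With the pair as NTg, Tnni3 was -0.023, and with the pair as Tg-Sirt1, Tnnt3 was -0.023. Leaving out 1 array at a time gave ranges from -0.085 to 0.135 for Tnnt3, -0.03 to 0.07 for Tnni3, -0.005 to 0.185 for Tnni2 1416889_at, -0.465 to 0.015 for Tnnc2, -0.21 to 0.06 for Tnnc1, -0.17 to 0.03 for Tnnt2 1418726_a_at and -0.22 to 0.04 for Tnnt2 1424967_x_at. For list medians these ranges were -0.075 to 0.08 for thin filament partners, -0.078 to 0.22 for kinases, phosphatases and proteases, -0.02 to 0.105 for transcription factors and hormone receptors, 0.04 to 0.325 for splicing factors and -0.24 to -0.083 for fetal genes. When each gene was the average of its probe sets, the median of transcription factors and hormone receptors was -0.075. No detection calls or signal over background were used here, which limits what the dim fast isoforms can show.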
